A study of Mus musculus with 4 samples.

Results

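The cells described here are Pax7-positive mouse myoblasts in culture that carried almost no transcripts of 5 mitotic genes. They were chosen from their own counts in the myoblast library. A member had at least 3 UMIs (unique molecular identifiers, 1 per captured transcript) of Pax7, 0 UMIs of Myog, at most 1 UMI of Mki67, Top2a, Cenpf, Cdk1 and Ccnb1 together, and at least 5000 UMIs in all. The rule found 433 cells among 2412 myoblasts that passed the cell filter, or 18.0% (exact Clopper-Pearson 95% interval 16.4 to 19.5%), and among 21301 filtered cells of the whole series. Cells meeting the same Pax7 and Myog conditions with at least 5 UMIs of the 5 genes numbered 846 and are called cycling, and 181 cells had 2 to 4 such UMIs. "Non-cycling" is used below as a name for the rule.

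The study profiled mouse muscle stem cells from tissue and from culture to compare their transcriptomes, with 1 droplet 3′ RNA library per group, and every group carried the Pax7-nGFP reporter. The myoblasts came from 1 male mouse aged 16 weeks and were unsorted at passage 2, in medium with 20% fetal bovine serum, 10% horse serum and 10 ng/ml basic FGF. The myogenic progenitor cells (MPC), whose parental cells came from a male mouse of the same age, spent 2 passages as myoblasts and then 5 in a medium with 10% fetal bovine serum, basic FGF, Forskolin (5 uM), Repsox (5 uM) and CHIR9901 (3 uM). Freshly isolated satellite cells (fiSC) were GFP-sorted from limb muscles of 3 pooled males aged 13 weeks. The ASC library, of satellite cells activated by injury, was sorted on GFP from 17 tibialis anterior muscles of males and females aged 18 to 24 weeks, pooled 3 days after 10 uM cardiotoxin.

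Satellite cells are the stem cells of skeletal muscle. They lie quiescent beside the fibre, marked by the transcription factor Pax7, and on injury they switch on Myod1, divide as myoblasts, and either return to rest or switch on Myog and differentiate. Leaving the cycle is controlled by D-type cyclins and their kinases, by the Cip/Kip and Ink4 inhibitors, and by repressor complexes of the Rb family that act on E2F and mitotic promoters. A snapshot of RNA does not separate a cell that has stopped dividing from one early in G1 phase.

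Since each group is 1 library, no test was possible and no p-value is given. Levels are UMIs summed over the cells of a group and scaled to CPM (UMIs per 1000000 UMIs of the group), with exact Poisson 95% intervals that cover counting error only. A gene was called higher or lower when log2(CPM + 5) differed by at least 2-fold and the higher group had at least 10 CPM. The members held 8857323 UMIs (median 20721 per cell, 10th to 90th percentile 9696 to 29129) and the cycling cells 23144739 (median 26091). Median mitochondrial shares were 5.92% and 5.83%. Of the myoblast barcodes, 176 also occurred in another library, 164 of them in MPC, and these include 10 members and 72 cycling cells. The comparison of members with cycling cells is therefore also given without them.

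Pax7, the gene of the rule, stood at 1536 CPM in the members (1510 to 1562) and 1304 CPM in the cycling cells. Thinned to 5000 UMIs per cell, the members' quartiles of Pax7 were 5, 7 and 10 UMIs. The EGFP transcript of the reporter was at 225 CPM in the members. Of 7 listed myogenic markers, Pax7 included, 6 reached 10 CPM in the members or the cycling cells. Among them, Des (the muscle intermediate filament) was at 805 CPM in the members and Cdh15 (M-cadherin) at 105 CPM. Only 8 members sat at the threshold of 3 Pax7 UMIs. Their Pax7 level was 423 CPM, against 258 CPM in 7 cells with 2 Pax7 UMIs. At median depths of 7261 and 7217 UMIs this order is set by the threshold itself, so nothing is read from it. At the other threshold, the 163 members with 1 cycle UMI and the 87 cells just outside with 2 had Pax7 levels of 1535 and 1451 CPM.

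Spry1 and Cdkn1b, offered as markers of these cells, did not set them apart. Spry1, a feedback inhibitor of receptor tyrosine kinase signalling known for its role in satellite cell quiescence, was at 10.8 CPM in the members (8.78 to 13.2) and 6.01 CPM in the cycling cells. It had a UMI in 15.2% of members, and in 4.16% after thinning to 5000 UMIs, against 47.0% of non-cycling fiSC thinned in the same way. Cdkn1b, which encodes the kinase inhibitor p27, was at 11.1 CPM in the members (8.98 to 13.5) and at 20.0 CPM in the cycling cells. This is the opposite order from the one its use as a marker implies, and the log2 ratio of -0.64 did not meet the size rule. Among cycling cells with at least 5000 UMIs, Cdkn1b was at 13.2 CPM (10.6 to 16.3) with 5 to 19 cycle UMIs. It was at 16.5 CPM with 20 to 59 and 28.1 CPM with 60 or more. In cells chosen by the same rule in the other libraries, Cdkn1b was at 75.1 CPM in fiSC, 66.2 in MPC and 61.9 in ASC. The cells are therefore described by Pax7 and by the rule alone.

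More genes were lower than higher in the members beside the cycling cells. Of 8977 genes with at least 10 CPM in either group, 391 were lower (4.36%) and 53 higher (0.590%). The median over all genes was -0.003. Without the shared barcodes the counts were 382 lower and 69 higher, and the latter included all 53. The cells were chosen on 5 genes of this same contrast, so these counts describe the choice and nothing is read from them as a test.

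**Figure D1:**
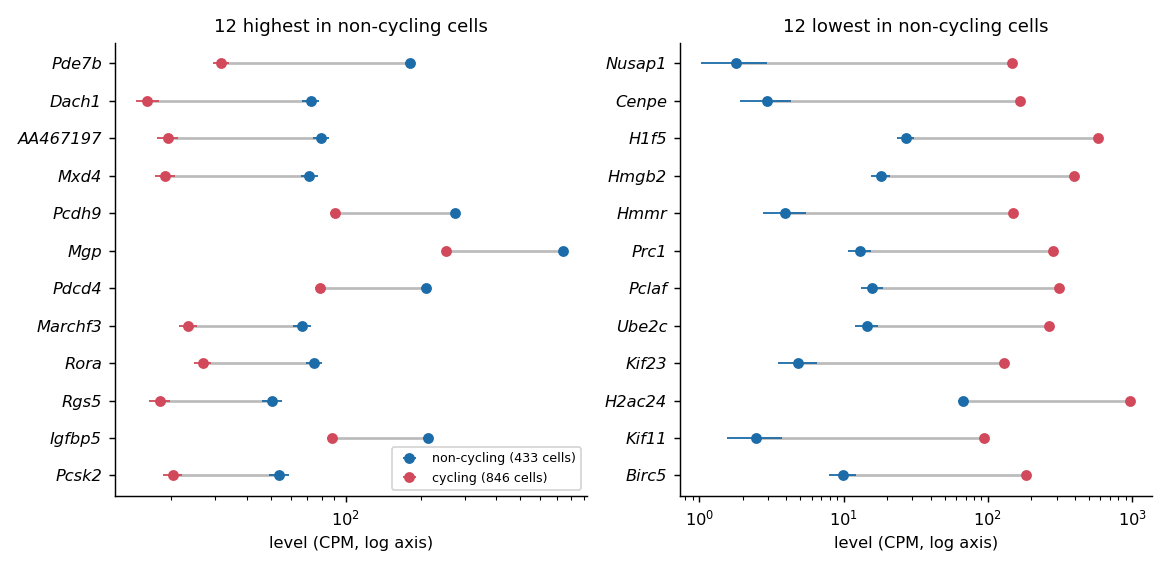
Levels of the 12 genes with the highest and the 12 with the lowest log2 ratio in the 433 non-cycling members against the 846 cycling Pax7-positive myoblasts, in CPM on log axes; points are summed levels and bars are exact Poisson 95% intervals, which cover counting error only. The members' Pde7b lies at 180.5 CPM against 31.5 CPM, and their Nusap1 at 1.81 CPM against 146 CPM.

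Other mitotic genes were lower in the members too. All 30 listed G2 and M phase genes outside the rule were lower. Since the 5 genes of the rule are mitotic as well, this order follows from the choice of cells and is no separate check of it. Their log2 ratios ran from -4.47 to -1.25, with -3.10 as the median. Nusap1, a spindle-associated protein, was at 1.81 CPM in the members (1.03 to 2.93) and 146 CPM in cycling cells. Cenpe, the kinetochore kinesin, was at 2.94 and 165 CPM, and Hmmr, a spindle assembly factor, at 3.95 and 149 CPM. The same order held for Prc1 (13.0 and 283 CPM) and Kif23 (4.86 and 129 CPM), which act in the central spindle, for the spindle motor Kif11 (2.48 and 93.7 CPM), and for Ube2c (14.5 and 263 CPM), the ubiquitin-conjugating enzyme of the anaphase-promoting complex. Birc5, the chromosomal passenger survivin, was at 9.94 and 185 CPM. Summed over the list, the members held 244 CPM, the cycling cells 3411 CPM and non-cycling fiSC 61.2 CPM.

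The promoters of such genes are known to carry CCAAT boxes. They are also known for cell cycle homology regions, and it is through the latter that Rb-family complexes repress them. To show what these promoters look like, the 120 bases before the start are printed for the 4 lowest genes of the list with a single RefSeq start, and for 2 genes higher in the members, Mxd4 and Pde7b. They are from RefSeq (build GRCm38.p6), 5′ to 3′ on the gene's strand, and capitals mark matches to the motifs searched.
Nusap1 (chr2:119618178-119618297, + strand): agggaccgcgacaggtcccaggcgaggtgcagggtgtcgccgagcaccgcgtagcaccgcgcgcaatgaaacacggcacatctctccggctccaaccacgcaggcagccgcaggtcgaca
Cenpe (chr3:135212443-135212562, + strand): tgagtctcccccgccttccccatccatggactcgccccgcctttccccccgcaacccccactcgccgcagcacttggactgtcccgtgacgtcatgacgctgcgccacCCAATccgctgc
Hmmr (chr11:40733438-40733557, - strand): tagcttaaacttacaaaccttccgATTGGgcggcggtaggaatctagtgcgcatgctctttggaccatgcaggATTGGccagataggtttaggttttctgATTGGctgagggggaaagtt
Ube2c (chr2:164769809-164769928, + strand): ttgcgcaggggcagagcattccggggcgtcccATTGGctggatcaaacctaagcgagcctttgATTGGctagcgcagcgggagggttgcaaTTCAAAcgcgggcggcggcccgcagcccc
Mxd4 (chr5:34187711-34187830, - strand): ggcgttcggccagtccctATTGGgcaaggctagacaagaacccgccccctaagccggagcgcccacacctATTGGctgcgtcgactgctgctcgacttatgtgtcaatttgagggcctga
Pde7b (chr10:20548329-20548448, - strand): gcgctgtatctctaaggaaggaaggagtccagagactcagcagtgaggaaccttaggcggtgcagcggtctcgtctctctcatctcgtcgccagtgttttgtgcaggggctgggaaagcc

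The motifs were the CCAAT box (CCAAT), the cell cycle homology region (TTTGAA or TTCGAA) and an E2F site (TTTCCCGC, TTTCGCGC, TTTGGCGC or TTTGCCGC), each searched on both strands with no mismatch in the 250 bases before every RefSeq start. Matches of different motifs may share end letters. Within the printed stretch Hmmr holds 3 CCAAT boxes, Ube2c 2 with a homology region, and Cenpe 1, while Nusap1 holds none of the 3 motifs. Mxd4, whose level was higher in the members, holds 2 CCAAT boxes. A CCAAT box lies before 60.2% of the 319 genes with an entry among those lower in the members, 59.1% of the 44 higher ones, 40.7% of the 7216 with at least 10 CPM and 37.5% of all 27025 genes in the table. The homology region lies before 30.4% of the lower genes, 6.82% of the higher ones, 14.4% of those with at least 10 CPM and 19.6% of all. The E2F site lies before 11.6, 2.27, 4.31 and 2.16% of the same sets. A match is a string of letters in the window and does not show that a factor binds there.

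S phase genes were lower in the members as well. Of 29 measured DNA replication genes 28 were lower (median -1.73), and Cdt1, the licensing factor that accumulates in G1, stood at -0.52. Clspn, a replication checkpoint mediator, was at 2.60 CPM in the members and 88.5 CPM in cycling cells. Ccne2, cyclin E2, was at 7.11 and 120 CPM, and the DNA ligase Lig1 at 25.5 and 157 CPM. Pclaf, a partner of the replication clamp, was at 15.8 and 310 CPM. Of 16 chromatin proteins linked to proliferation 12 were lower, among them Hmgb2 (18.1 and 397 CPM), Dek (107 and 471 CPM) and Lmnb1, lamin B1 (24.5 and 129 CPM). The linker histone H1f5 (26.9 and 579 CPM) and the core histone H2ac24 (67.6 and 966 CPM) were also lower, with the limit that histone genes have near-identical copies among which reads may be split.

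Cell by cell, after thinning to 5000 UMIs, 64.9% of the members had at least 2 UMIs of the DNA replication list (exact 95% interval 60.2 to 69.4%), against 98.8% of cycling cells and 45.2% of non-cycling fiSC. At 5 or more UMIs the shares were 21.9% (18.1 to 26.1%), 87.0% and 5.13%. Cells of the MPC library under the same rule lay above the members, at 67.3%. The cut of at most 1 cycle UMI was made before thinning. Median depths were 9684 UMIs in these MPC, 10018 in the non-cycling fiSC and 20721 in the members. The cut is therefore less strict in MPC and fiSC, and the part of this in the differences was not tested. For the other G2 and M genes, 29.1% of members had at least 2 UMIs (24.9 to 33.6%), against 96.4% of cycling cells, 35.4% of non-cycling MPC and 5.35% of non-cycling fiSC. Without thinning, 78.1% of members had at least 2 UMIs of the G2 and M list and 94.0% of the DNA replication list, at a median depth of 20721 UMIs against 10018 in fiSC. The part of free RNA in these shares was not tested.

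**Figure D2:**
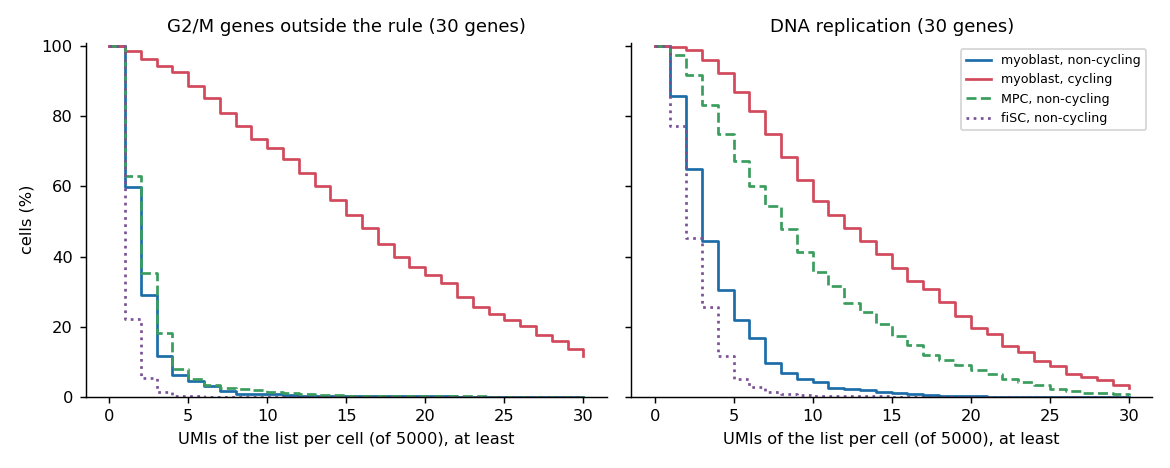
Share of cells (y axis, percent) with at least the number of list UMIs on the x axis, after thinning every cell to 5000 UMIs, for 30 G2 and M genes outside the rule (left) and 30 DNA replication genes (right). The members (solid blue) lie near non-cycling MPC for G2 and M genes, and for DNA replication genes fall to 21.9% at 5 UMIs, between fiSC (5.13%) and MPC (67.3%).

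The D cyclins, which drive passage through G1, were not lower in the members. Ccnd2 was at 1311 CPM in the members (1287 to 1335) and 637 CPM in cycling cells, a log2 ratio of 1.03 that lies close to the size rule. It had a UMI in 94.2% of members and 83.4% of cycling cells after thinning. The log2 ratio was 0.88 when cells were limited to 5% mitochondrial UMIs and 0.89 against all cells with at least 2 cycle UMIs, both short of the size rule. Ccnd1 was at 789 and 615 CPM and Ccnd3 at 279 and 215 CPM, neither of them called. Their kinases Cdk4 (198 and 227 CPM) and Cdk6 (286 and 288 CPM) were close in both groups, and Cdk2, the partner of cyclins E and A, was at 5.65 and 15.8 CPM.

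None of the cyclin-dependent kinase inhibitors was called higher in the members. Cdkn1a, p21, was at 381 CPM in the members and 350 CPM in cycling cells. Cdkn2a, whose 3′ counts do not separate p16 from Arf, was at 309 CPM (297 to 321) and 220 CPM, a log2 ratio of 0.48. Cdkn2b, p15, was at 54.2 CPM (49.5 to 59.3) and 29.5 CPM, with a log2 ratio of 0.78. Cdkn2c, p18, was the 1 called gene of 6 measured, lower at 4.63 against 20.3 CPM, and Cdkn2d, p19, was at 4.86 and 13.1 CPM. Of 16 measured p53 targets none was called, with a median log2 ratio of 0.04. In the Rb family, Rbl1 (p107) was lower at 7.11 against 33.1 CPM, Rbl2 (p130) stood at 13.7 and 10.6 CPM, Rb1 at 45.3 and 57.1 CPM, and the DREAM complex subunit Lin9 was lower at 10.6 against 30.5 CPM.

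The 12 highest genes by the naming rule held no single class. Pde7b, a cAMP phosphodiesterase, was at 180.5 CPM (172 to 190) and 31.5 CPM, a log2 ratio of 2.35. Mxd4, a partner of Max that opposes Myc, was at 71.5 CPM (66.0 to 77.3) and 18.9 CPM, a log2 ratio of 1.68. Pdcd4, an inhibitor of the translation factor eIF4A, was at 209 and 78.7 CPM. Dach1, a transcriptional corepressor, was at 72.4 and 16.0 CPM, and the nuclear receptor Rora at 74.5 and 26.7 CPM. Mgp (matrix Gla protein, an inhibitor of calcification) was at 743 and 252 CPM, Igfbp5 (an IGF-binding protein) at 213 and 87.7 CPM, and the protocadherin Pcdh9 at 274 and 90.1 CPM. The remaining 4 were AA467197 (79.6 and 19.3 CPM), the ubiquitin ligase Marchf3 (66.8 and 23.3 CPM), the G-protein regulator Rgs5 (50.7 and 18.0 CPM) and the prohormone convertase Pcsk2 (53.9 and 20.2 CPM). Limited to the 270 members with 0 cycle UMIs, Igfbp5, Rora and Pcsk2 had log2 ratios of 0.83, 0.78 and 0.72 and were no longer called. Without the shared barcodes the Igfbp5 ratio was 1.69 instead of 1.23, and the 72 shared cycling cells held 231 CPM of it beside 63.9 CPM in the other cycling cells.

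**Figure D3:**
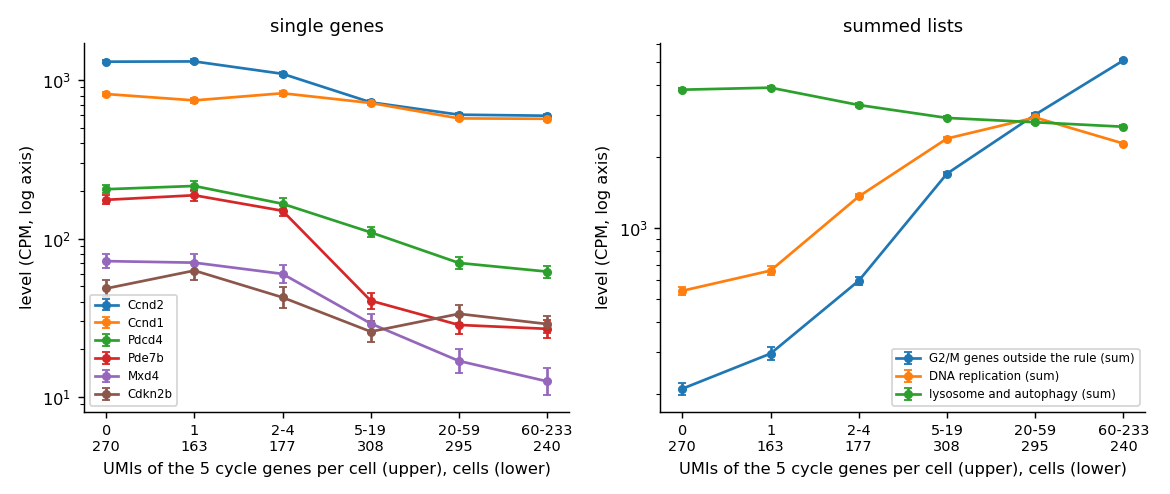
Levels in CPM (log axes) in Pax7-positive, Myog-negative myoblasts with at least 5000 UMIs, grouped by their UMIs of the 5 cycle genes; the first 2 points of each line are the members, bars are exact Poisson 95% intervals, and the lower row of the axis gives the cells per point. Pde7b lies between 150 and 188 CPM up to 4 cycle UMIs and at 40.6 CPM from 5 to 19, while summed DNA replication genes climb from 543 CPM to 2925 CPM and stand at 2271 CPM in the last group.

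These levels followed the number of cycle UMIs in different ways, which the plot by cycle UMIs shows. Pde7b was at 176 CPM with 0 cycle UMIs, 188 with 1, 150 with 2 to 4 and 40.6 with 5 to 19. Mxd4 was at 72.1, 70.5, 59.9 and 29.1 CPM in the same groups and at 12.6 CPM in cells with 60 or more. Ccnd2 was at 1309, 1313, 1097 and 725 CPM. Cells just outside the rule thus had levels of these genes nearer to the members than to the cycling cells. The DNA replication sum was 543 CPM with 0 cycle UMIs, 660 with 1, 1357 with 2 to 4 and 2384 with 5 to 19.

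Genes of growth arrest and of the lysosome lay slightly above the cycling level without meeting the size rule. In the list of FoxO targets and growth arrest genes 16 of 17 measured genes had a ratio above 0, with a median log2 ratio of 0.41, and only Mxd4 was called. Fbxo32, the ubiquitin ligase atrogin-1, was at 84.1 and 40.5 CPM and Cited2 at 469 and 254 CPM. All 20 measured lysosome and autophagy genes had ratios above 0, from 0.03 to 0.89 with a median of 0.45, and none was called. Map1lc3a, the autophagosome protein LC3, was at 105 and 54.3 CPM, the protease Ctsd at 252 and 148 CPM, and Sqstm1, an autophagy receptor, at 230 and 145 CPM. Ribosome biogenesis genes were on the other side, 17 of 18 below 0 with a median of -0.48 and none called. Ncl, nucleolin, was at 1166 and 1941 CPM, and Nop58 at 233 and 385 CPM. Over all 8977 genes, 4451 ratios were above 0 and 4526 below.

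**Figure D4:**
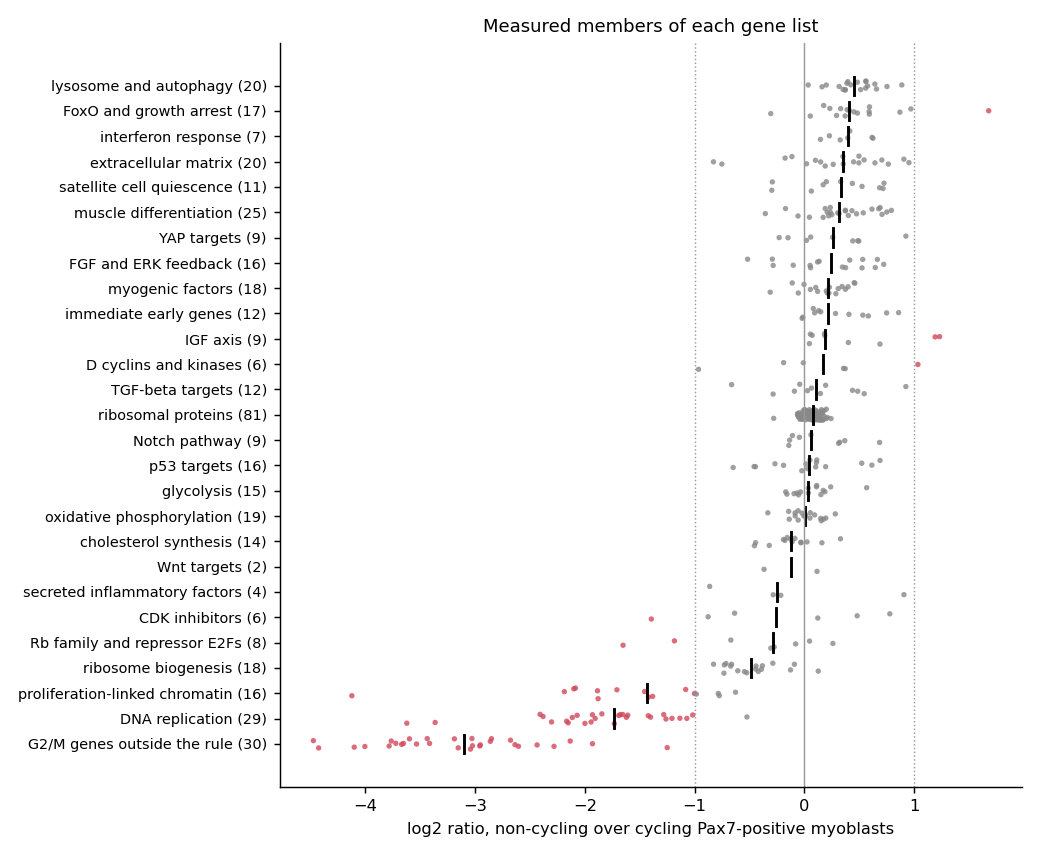
Log2 ratio of members over cycling cells (x axis) for each measured gene of 27 lists, with the number measured in brackets, the median as a black bar, and genes with a ratio of at least 2-fold in red; dotted lines mark 2-fold. Most red points are in the G2 and M, DNA replication and chromatin lists, whose medians are -3.10, -1.73 and -1.44.

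Genes tied to satellite cell quiescence did not set the members apart from cycling myoblasts. Of 20 such genes 11 were measured and none was called, with a median log2 ratio of 0.33. The receptor Notch3 was at 73.3 and 43.7 CPM, and Tenm4, a teneurin, at 35.3 and 19.4 CPM. Vcam1, an adhesion molecule of satellite cells, was at 64.4 and 61.4 CPM. Calcr, the calcitonin receptor that holds satellite cells in quiescence, had 1 UMI in all members, and Cd34 was at 8.35 CPM. Among 9 measured Notch genes none was called either (median 0.06, and -0.01 with only the members at 0 cycle UMIs). Hes1 was at 392 and 302 CPM, Rbpj, the pathway's DNA-binding factor, at 179 and 193 CPM, and the targets Heyl (6.66 CPM) and Hey1 (1.81 CPM) were under the 10 CPM minimum in both groups.

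Transcripts of commitment factors and early muscle genes were present in both groups. None of 18 measured myogenic factors was called, with a median log2 ratio of 0.22. Myod1, the determination factor, was at 500 CPM (486 to 515) and 403 CPM, and had a UMI in 78.8% and 79.8% of cells after thinning. Myf5, which precedes it, was at 24.0 and 26.4 CPM. Of 25 measured muscle differentiation genes none was called, and 22 had ratios above 0 (median 0.32), although the rule held both groups at 0 UMIs of Myog. The troponin Tnni1 was at 81.1 and 44.7 CPM, and the acetylcholine receptor subunits Chrng and Chrnd at 59.6 and 33.4 CPM and at 45.7 and 26.4 CPM. Summed over the muscle differentiation list, the members held 3458 CPM, the cycling cells 2677 CPM and all filtered myoblasts 15231 CPM. The Myog condition is less strict at the members' lower median depth (20721 UMIs against 26091). The part of this, and of free RNA, in these levels was not tested.

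Secreted and matrix genes included the transcripts that varied most from member to member. Spp1, osteopontin, was at 12304 CPM against 6563 CPM in cycling cells, a log2 ratio of 0.91, and Lama2, a laminin of the muscle basement membrane, at 590 and 303 CPM. None of 20 measured matrix genes was called (median 0.35). Of 9 measured IGF genes Igfbp3 (83.0 and 33.5 CPM) and Igfbp5 were called. Among 1679 genes with a mean of at least 0.5 UMI per 5000, the median Fano factor (variance over mean) in the members was 1.19. Spp1 had the highest at 32.5, with 10th and 90th percentiles of 17.2 and 125 UMIs per 5000. Mgp was next at 22.5, and 22 cells, 5% of the members, held 41.6% of its UMIs. Gal, the neuropeptide galanin (12.2), Igfbp5 (7.99) and Pcdh9 (7.29) were uneven in the same way, with 66.7, 51.8 and 44.2% of their UMIs in the top 22 cells of each gene. In the cycling cells the Fano factors were 16.9 for Spp1, 3.90 for Mgp and 2.95 for Pcdh9. They were 10.4 for Gal and 11.8 for Igfbp5, the last above the members' value. The Fano factor can grow with the mean, and Spp1 averaged 61.7 UMIs per 5000 in the members and 32.9 in cycling cells. The top 5% of cells held 15.2% of the Spp1 UMIs in both groups. The other genes among the 10 highest were Rn18s (18.6 in members, 36.9 in cycling cells), S100a6 (10.9 and 6.39), mt-Rnr2 (10.4 and 10.2), Tmem196 (6.70 and 7.67) and Tmsb4x (6.55 and 5.24).

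Signalling and metabolic lists differed little between the groups. None of the measured genes was called among 12 TGF-beta targets, 9 YAP targets, 2 Wnt targets, 16 FGF and ERK feedback genes, 12 immediate early genes, 7 interferon response genes, 4 secreted inflammatory factors or 14 cholesterol synthesis genes. Ccn2, a matrix protein that answers both TGF-beta and YAP, was at 16.7 and 6.44 CPM with a log2 ratio of 0.92, and Dusp6, a phosphatase induced by ERK, was at 57.8 and 33.1 CPM. Spry4, another feedback inhibitor of the ERK pathway, was at 21.7 and 12.1 CPM. The pseudocount of 5 CPM shrinks ratios at low levels. With 1 CPM instead, 8 of the 175 named genes measured in this contrast, across all lists, became called. All 7 interferon response genes had ratios above 0 (median 0.39), with Ifitm3, a membrane antiviral protein, at 324 and 210 CPM. The medians of glycolysis (0.04, 15 genes) and oxidative phosphorylation (0.01, 19 genes) lay near 0 and changed sign when cells were limited to 5% mitochondrial UMIs. The 81 measured ribosomal protein genes had a median of 0.08.

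Markers of other cell types were few. Of the macrophage list 4 of 7 genes, Ptprc, Lyz2, C1qa and C1qb, had 0 UMIs in the members, which over the group allows a level of up to 0.339 CPM each, and the list summed to 2.60 CPM. The fibroblast genes Pdgfra and Dcn were at 1.24 and 0.452 CPM, while Ly6a was called higher at 32.1 against 13.2 CPM. In the mural list Kcnj8 had 0 UMIs and Rgs5 was called. The tenocyte transcription factor Scx was at 54.2 and 39.0 CPM with Tnmd and Fmod at 0. The endothelial, Schwann and erythroid lists summed to 5.08, 5.19 and 0 CPM. Of the T cell list, Trbc2 was at 33.6 and 27.9 CPM, with Cd3e and Cd3d at 0 in the members. Cd53, a tetraspanin of leukocytes named here after its value was seen, was higher at 29.1 against 9.16 CPM, beside the 0 UMIs of Ptprc.

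The same contrast in the MPC library gave a similar set of lower genes and few higher ones. Between 950 non-cycling and 2904 cycling MPC, 296 of 9073 measured genes were lower (3.26%) and 10 higher (0.110%). Of the 391 genes lower in the members 249 were also lower in MPC, which is 63.7% of the first list and 84.1% of the second. Both lists come from cells split on the same 5 genes. Of the 53 higher genes 2, Ccnd2 and Mxd4, were also higher in MPC, 3.77% of one list and 20% of the other. Ccnd2 was at 176 and 82.4 CPM in MPC, and Mxd4 at 42.0 and 17.6 CPM. Of the 34 higher genes measured in MPC, 32 had a ratio above 0 there, against 39.2% of the 8287 genes measured in both libraries, and no gene was called in opposite directions. DNA replication genes were called lower for 8 of 30 in MPC against 28 of 29 in the myoblasts, with medians of -0.58 and -1.73. The cut on cycle UMIs is less strict at the lower depth of the non-cycling MPC (median 9684 UMIs), and this difference was not tested. In MPC Pde7b was at 291 and 206 CPM, and Mgp at 1348 and 1223 CPM, so neither was called there.

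**Figure D5:**
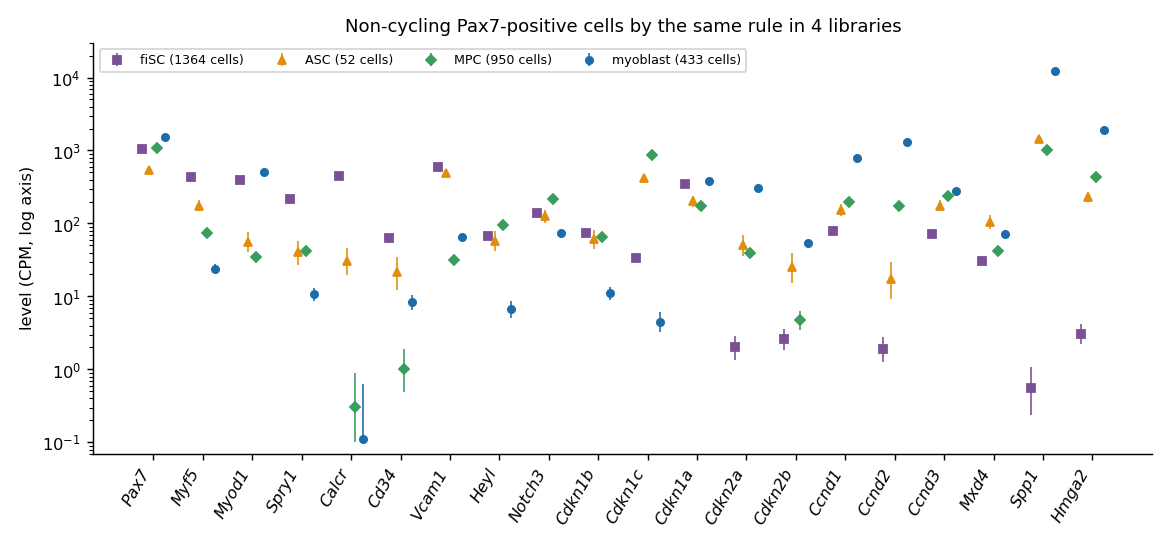
Levels of 20 genes in CPM (log axis) in cells chosen by the same rule (Pax7 at least 3, Myog 0, at most 1 cycle UMI, at least 5000 UMIs) in the fiSC, ASC, MPC and myoblast libraries; bars are exact Poisson 95% intervals within 1 library each. Spry1, Cdkn1b and Myf5 are lowest in the myoblasts, at 10.8, 11.1 and 24.0 CPM, and Ccnd1, Ccnd2, Spp1 and Hmga2 highest, at 789, 1311, 12304 and 1892 CPM.

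Beside fresh satellite cells under the same rule, the members held lower levels of most genes of the quiescence list. Against 1364 non-cycling fiSC, 2533 of 9380 genes were higher in the members (27.0%) and 1678 lower (17.9%). Over all genes the median was 0.31. TMM scaling brought it to -0.02 and the counts to 1855 and 2142, so that higher genes were 46.4% of the called genes and not 60.2%. Of 20 quiescence genes 18 were lower and 1, Sdc3, was higher (65.8 CPM in members, 3.04 in fiSC), with a median of -2.65. Calcr was at 0.113 CPM in the members (1 UMI) and 452 CPM in fiSC, Spry1 at 10.8 and 215, Vcam1 at 64.4 and 597, and Heyl at 6.66 and 68.2 CPM. Fresh cells also held more immediate early transcripts, with 15 of 16 genes lower in the members. The heat shock genes Hspa1a (2.03 and 6266 CPM) and Hspa1b (3.05 and 5270 CPM) were the lowest named, beside Fos at 8.92 and 2393 CPM. The fresh cells were sorted and the cultured cells were not, and the part of this handling cannot be told apart from the cell state.

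On the higher side, the members held 1311 CPM of Ccnd2 against 1.93 CPM in fresh cells, 789 against 78.4 CPM of Ccnd1, and 309 against 2.00 CPM of Cdkn2a. Hmga2, a chromatin protein of fetal and growing cells, was at 1892 and 3.10 CPM. Cycling myoblasts held 1550 CPM of Hmga2, so its level was not particular to the members. The semaphorin Sema3e was at 768 and 6.69 CPM. Glycolysis genes were higher for 9 of 16, oxidative phosphorylation genes for 15 of 19 and muscle differentiation genes for 21 of 25, with medians of 1.61, 1.43 and 2.43 beside the shift of 0.31. The members' DNA replication sum was 590 CPM against 338 in fresh cells, and 12 of 20 measured genes of that list were higher.

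Against non-cycling MPC, 847 of 9350 genes were higher in the members (9.06%) and 896 lower (9.58%). Cdkn1c, which encodes the inhibitor p57, was at 4.52 CPM in the members and 864 CPM in MPC. Other genes named as lowest were Gpc3, a glypican (1.02 and 516 CPM), Crabp1, a retinoic acid binding protein (0.903 and 304 CPM), Col15a1, a basement membrane collagen (0.113 and 300 CPM), Pde3a, a phosphodiesterase (0.226 and 171 CPM), and Ndufa4l2 (0 UMIs and 358 CPM). Genes named as highest were the protease gene Mcpt8 (534 and 0.205 CPM), the secretin gene Sct (474.5 and 2.36 CPM), Ankrd1, a YAP target (2706 and 35.6 CPM), Fgf13 (196 and 0.512 CPM) and Lingo2 (339 and 3.79 CPM). The granzyme gene Gzme was at 204 CPM in the members with 0 UMIs in non-cycling MPC, fiSC and ASC. Myod1 was at 500 CPM in the members and 35.2 in MPC, and Myf5 at 24.0 and 73.0. Of 16 measured quiescence genes 10 were lower in the members and 2 higher, and of 6 D cyclins and kinases 3 were higher and 1 lower.

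Only 52 ASC met the rule, so that comparison is the least precise. There, 1074 of 9437 genes were higher in the members (11.4%) and 1100 lower (11.7%). The ASC sums held 1169 CPM of the 7 macrophage markers, among them 755 CPM of Lyz2, against 2.60 CPM in the members. Lyz2, Ctss (1.13 and 293 CPM), Apoe (0.677 and 1383 CPM) and Ifi27l2a (0 UMIs and 245 CPM) were among the 6 lowest genes named, and the part of the macrophage transcripts in them was not tested. Ccnd2 was at 1311 CPM in the members and 17.5 in ASC (13 UMIs), and Ccnd1 at 789 and 153 CPM. Pax7 itself was at 1536 and 545 CPM.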

How the data were processed

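For each of 4 libraries the authors deposited a matrix of UMI counts by gene and barcode, not normalized. Per the labels' protocols these are 10x Genomics 3′ libraries, and the submitters' processing notes name STAR 2.7.10b and the build GRCm39. UMI collapsing, cell calling and the annotation are not given in the sources used here. The files hold 25828 features under 25804 symbols, and counts of repeated symbols were summed.

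Barcodes were kept with at least 1000 UMIs, 500 genes and at most 10% mitochondrial UMIs, which kept 2412 of 2993 myoblast, 9895 of 11847 MPC, 2251 of 2705 fiSC and 6743 of 10818 ASC barcodes. Counts were summed per group and scaled to CPM, with a pseudocount of 5 CPM in log2 ratios. Thinning drew 5000 UMIs per cell without replacement. Intervals are exact and cover counting error only. Scores from Scrublet (scanpy 1.11.5) marked 6 cells (0.249%), which was too few to be used, so no doublets were removed. Removing the 47 highest scores instead took 0 members. The arithmetic of the size rule was checked on simulated Poisson counts with planted fold changes. These held no variation between cells or libraries and no choice of cells by cycle genes, so they do not test the contrast itself. TMM factors were computed by edgeR's method and checked against edgeR 4.0.16 for members against cycling cells only. No count model was fitted.

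The members, the 37 gene lists and the size rule were chosen with earlier results of these data known. Named genes were the rule genes and markers, list members with the largest ratios, and the 12 highest and 12 lowest genes (6 each against other libraries) with at least 50 CPM that met the size rule in summed, per-cell and thinned levels, pseudogenes and mitochondrial genes left out. Alternatives covered scaling, pseudocount, minimum level, fold, thresholds of the cell rule and, chosen after seeing the data, removal of barcodes shared between libraries.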

Additional observations from a re-analysis of the deposited data

How the results depend on the processing

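No paired analysis was possible because each group is 1 library, and for the same reason no replicate could be left out. From 53 higher genes against cycling myoblasts, the count became 115 with a pseudocount of 1 CPM, 28 with a minimum of 50 CPM, 369 at 1.5-fold, 110 with at most 5% mitochondrial UMIs, and 31 against all cells with at least 2 cycle UMIs. From 391 lower genes it became 178 with a minimum of 50 CPM and 854 at 1.5-fold. The other settings gave 49 to 73 higher and 352 to 479 lower genes. The genes called were not always the same. Of the 53 higher genes, 39 were called again after thinning, 43 with per-cell means and 50 with TMM scaling. With 0 cycle UMIs in members 41 were, and with at most 5% mitochondrial UMIs 38. Of the 391 lower genes, the same 5 settings called 363, 378, 391, 380 and 366 again. The rule found 719 members when applied after thinning to 5000 UMIs (407 of them among the 433), 270 with 0 cycle UMIs, and 96 with at most 5% mitochondrial UMIs. Pax7 in the members was 1491 CPM as a mean of per-cell levels and 1458 CPM after thinning, and Spry1 was 8.31 CPM after thinning. The share of members with at least 2 UMIs of the other G2 and M genes was 54.1% thinned to 10000 UMIs and 78.1% unthinned, and that for DNA replication genes 86.1% and 94.0%. Thinning left 6 higher genes in the MPC contrast in place of 10. Against ASC, higher genes were 49.4% of the called genes, and from 42.1% (per-cell means) to 55.9% (TMM scaling) under the other settings. TMM scaling turned the balance of higher and lower genes against each other library, to 1855 and 2142 against fiSC, 916 and 841 against MPC, and 1241 and 978 against ASC. The list medians of CDK inhibitors, Notch, Wnt, glycolysis, oxidative phosphorylation and secreted factors, none over 0.26 in size, changed sign under at least 1 of them. The causes were not tested. The main limits are 1 library and 1 mouse for the members, rules built on the same counts, and 52 cells in the ASC comparison.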
